A study of Rattus norvegicus with 9 samples.

Results

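The genes of G2 and mitosis were followed in S31 cells, a rat vascular smooth muscle cell of WT genotype that was derived from cardiac microvessels of male Wistar Kyoto animals and is labelled as primary. The list held 43 genes for cyclins and mitotic kinases, the spindle checkpoint, the chromosomal passenger complex, kinetochore, spindle, condensin and cytokinesis. They were matched by symbol, ignoring case, to a table of FPKM (fragments scaled to transcript length and to library size), and a gene entered the tests where its mean over 9 libraries was at least 1 FPKM. Of the 43 listed genes 38 did, among 11376 genes of the table with such a mean. The members just above that limit were Espl1 with a mean of 1.46 FPKM and Cenpe with 1.52 FPKM. The listed members below it were Ccnb2, a partner of Cdk1, with a mean of 0.159 FPKM, and Racgap1, a centralspindlin subunit, listed at 0 in all 9 libraries. A listed 0 can be a failed estimate, so nothing is read from these 2 genes. Nek2, Hmmr and Anln were matched to no row by their symbols and are not analysed here.

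There were 3 PDGF-NS libraries, 3 IGF-NS libraries and 3 control libraries (the LH-NS columns). All cells went without serum for 48 h first. Treated cells then had PDGF-BB (recombinant, rat) or IGF-1 (recombinant, human), each at 25 ng/ml, and control cells had new serum-free medium with no growth factor. The column names and the sample records disagree: a record with IGF-1 in its title points to a PDGF-NS column, and a record with PDGF-BB in its title points to an IGF-NS column. By record, the PDGF-NS and control libraries were harvested at 24 h and the IGF-NS libraries at 48 h. The sets are therefore called by their columns, and growth factor and harvest time cannot be told apart in the IGF-NS set. Whether the libraries of a set were separate cultures is not said in the labels, and p-values therefore cover only the spread between these libraries, which may be technical. In bulk RNA, more cells in G2 or mitosis and more of these transcripts per cell cannot be told apart.

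Genes of this group are switched on late in the cell cycle. In resting cells the DREAM complex, built on the MuvB core, keeps many of them low, and in G2 the same core joins B-MYB and FOXM1 to activate them. Their proteins drive entry into mitosis, condense and attach the chromosomes, hold anaphase until every kinetochore is attached, and divide the cell. The anaphase-promoting complex (APC/C) then marks cyclins and other mitotic proteins for destruction. Vascular smooth muscle is largely quiescent in the vessel wall and can re-enter the cycle in culture, where growth factors are classical stimuli.

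Promoters of the members are shown because the group is textbook for shared promoter letters: the cell cycle homology region (CHR), contacted by MuvB, and the CCAAT box, bound by NF-Y. RefSeq promoters of the GRCr8 assembly, from 250 bases before to 50 bases from the start on, were at hand for 37 listed members, 33 of them tested. The 5 printed below are those of Cdc20, Bub1b and Cdca3, which differed from control in opposite directions in the 2 treated sets, of Nusap1, with the largest positive difference between PDGF-NS and control among the members, and of Kif20a, with the smallest adjusted p between the treated sets. They lie at chr5:137255750-137256049, minus strand (Cdc20), chr3:126016817-126017116, plus strand (Bub1b), chr4:159320953-159321252, plus strand (Cdca3), chr3:127057045-127057344, plus strand (Nusap1) and chr18:26504172-26504471, plus strand (Kif20a), and are written 5′ to 3′ on the strand of the gene. Capitals mark CHR letters (TTTGAA or TTCGAA) and CCAAT letters on either strand, so that a CCAAT box on the other strand reads ATTGG.
Cdc20: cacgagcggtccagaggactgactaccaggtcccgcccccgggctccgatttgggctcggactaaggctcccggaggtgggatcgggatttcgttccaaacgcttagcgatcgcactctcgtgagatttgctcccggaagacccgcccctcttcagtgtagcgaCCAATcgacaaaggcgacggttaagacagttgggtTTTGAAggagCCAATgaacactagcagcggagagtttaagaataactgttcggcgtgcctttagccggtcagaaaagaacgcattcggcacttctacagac
Bub1b: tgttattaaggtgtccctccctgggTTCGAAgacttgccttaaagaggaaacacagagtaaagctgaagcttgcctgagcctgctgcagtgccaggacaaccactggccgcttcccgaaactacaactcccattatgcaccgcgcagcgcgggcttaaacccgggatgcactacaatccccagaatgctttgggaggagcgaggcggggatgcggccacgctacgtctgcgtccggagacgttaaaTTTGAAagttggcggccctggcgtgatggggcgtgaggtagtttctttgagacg
Cdca3: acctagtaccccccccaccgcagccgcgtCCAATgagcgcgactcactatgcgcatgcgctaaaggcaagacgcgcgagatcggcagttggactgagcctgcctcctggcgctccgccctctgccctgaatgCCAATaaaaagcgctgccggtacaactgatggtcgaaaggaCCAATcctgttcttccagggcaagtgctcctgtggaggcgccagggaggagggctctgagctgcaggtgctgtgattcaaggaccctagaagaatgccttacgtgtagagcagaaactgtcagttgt
Nusap1: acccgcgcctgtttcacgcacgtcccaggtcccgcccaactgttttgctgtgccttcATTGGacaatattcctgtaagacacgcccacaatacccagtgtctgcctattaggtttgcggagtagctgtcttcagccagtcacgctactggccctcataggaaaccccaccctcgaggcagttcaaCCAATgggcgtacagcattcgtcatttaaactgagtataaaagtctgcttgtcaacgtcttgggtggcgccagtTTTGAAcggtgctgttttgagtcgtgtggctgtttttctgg
Kif20a: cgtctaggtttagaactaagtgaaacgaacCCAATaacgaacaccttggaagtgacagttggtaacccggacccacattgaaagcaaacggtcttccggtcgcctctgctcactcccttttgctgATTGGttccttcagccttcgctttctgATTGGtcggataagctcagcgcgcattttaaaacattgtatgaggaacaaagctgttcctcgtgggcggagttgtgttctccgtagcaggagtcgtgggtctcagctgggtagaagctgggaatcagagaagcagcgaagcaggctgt

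CHR letters stood in 66.7% of the promoters of the tested members (22 of 33), against 13.1% of 7865 promoters of all genes tested and 19.5% of 27457 promoters in the table. CCAAT letters stood in 81.8% of members (27 of 33), against 38.1% of promoters of genes tested and 37.7% of all in the table. At least 2 CCAAT matches were found in 51.5% of members, against 14.1% of promoters of genes tested. Both kinds of letters were present in 63.6% of members and in 5.51% of promoters of genes tested. The motifs can share letters, as in the Mki67 promoter, where a CHR match runs into a CCAAT match on the other strand. The Cdc20 promoter holds a CHR match 51 bases before the start between CCAAT matches at 86 and 41 bases before it. Bub1b holds 2 CHR matches, at 225 and 4 bases before the start, and no CCAAT letters, whereas Cdca3 and Kif20a hold 3 CCAAT matches each and no CHR letters. Aurka, Bub1, Kif2c, Melk and Ncaph, 5 tested members, held neither. A match is a description of these letters, not evidence of binding, and no match says only that the letters are not in this window.

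**Figure D1:**
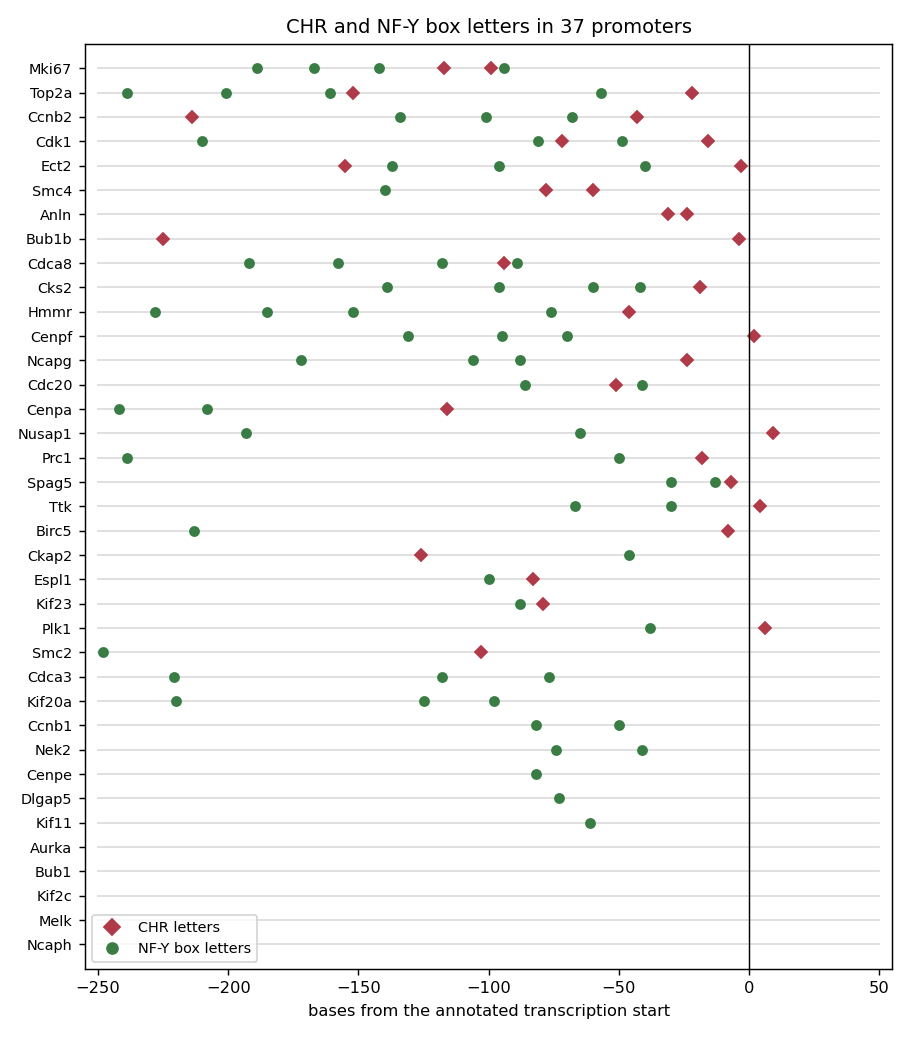
Positions of CHR letters (red diamonds, first base of TTTGAA or TTCGAA) and of CCAAT box letters (green circles) in the promoters of 37 listed members, in bases from the annotated start (black line). Of 33 CHR matches 25 lie within 150 bases before the start, with a median first base at -46, and of 67 CCAAT matches 47 do, with a median at -96.

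The libraries differed in ways that touch these genes. Within sets the libraries correlated at 0.959 to 0.983 across genes on the log2 scale and between sets at 0.901 to 0.947, their FPKM summed to between 616765 and 748000, and their relative depth, read from the steps between low values, ran from 0.62 to 1.41 with control library 1 as 1. Library 1 was the lowest of its set for 34 of 38 members in PDGF-NS, 37 in IGF-NS and 31 in control. Of all genes 49.8% were lowest in library 1 in PDGF-NS, 21.5% in IGF-NS and 40.8% in control. Markers of smooth muscle were present at a mean of at least 1 FPKM for 8 of 9 genes (Myh11 was at 0.94), and summed to 290 to 356 FPKM in PDGF-NS, 508 to 536 FPKM in IGF-NS and 2328 to 3327 FPKM in control libraries. Endothelial markers reached that mean for 0 of 7 genes, with Cdh5, Cldn5, Emcn and Kdr listed at 0. Leukocyte markers reached it for 2 of 7 (Cd14 and Cd68, with Ptprc and Aif1 at 0), summing to 43.6 to 89.8 FPKM in PDGF-NS, 22.6 to 30.8 FPKM in IGF-NS and 18.0 to 27.0 FPKM in control. Pericyte markers did for 2 of 4, with Rgs5 at 0 and sums of 146 to 163 FPKM in PDGF-NS, 81.1 to 96.7 FPKM in IGF-NS and 57.8 to 79.0 FPKM in control. Fibroblast markers did for 3 of 4, with Tcf21 at 0 and sums of 821 to 1314 FPKM in PDGF-NS, 1894 to 2012 FPKM in IGF-NS and 297 to 422 FPKM in control. Cardiomyocyte markers did for 1 of 6 (Tnnt2), with Myh6, Myh7 and Myl7 at 0 and sums of 1.82 to 4.81 FPKM in PDGF-NS, 8.66 to 19.1 FPKM in IGF-NS and 10.5 to 23.1 FPKM in control. Tagln, Abcc9 and Lum made up most of the smooth muscle, pericyte and fibroblast sums, and some genes went another way. Des had 4.85 to 5.52 FPKM in PDGF-NS and 1.22 to 1.71 FPKM in control. Kcnj8 had 7.53 to 21.0 FPKM in PDGF-NS and 28.0 to 30.7 FPKM in IGF-NS. Pdgfra had 26.6 to 30.2 FPKM in PDGF-NS and 19.5 to 24.3 FPKM in IGF-NS. The part of these markers and of library 1 in the results was not tested.

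As a group, mitotic transcripts were most abundant in IGF-NS libraries, and PDGF-NS and control libraries overlapped. The 38 members averaged 2.66 ± 0.22 on the log2(FPKM + 1) scale in PDGF-NS, 3.78 ± 0.34 in IGF-NS and 2.88 ± 0.20 in control (SD, n = 3 each). Summed, they gave 241, 327 and 335 FPKM in PDGF-NS libraries 1 to 3, 526, 828 and 892 FPKM in IGF-NS libraries and 299, 415 and 384 FPKM in control libraries. Every IGF-NS library lay above every PDGF-NS and every control library in this sum, whereas PDGF-NS libraries 2 and 3 lay inside the control range. The most abundant members by mean level were Cks2, Ube2c, Cdk1, Ccna2 and Cdca3, and the least abundant were Espl1, Cenpe and Melk.

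**Figure D2:**
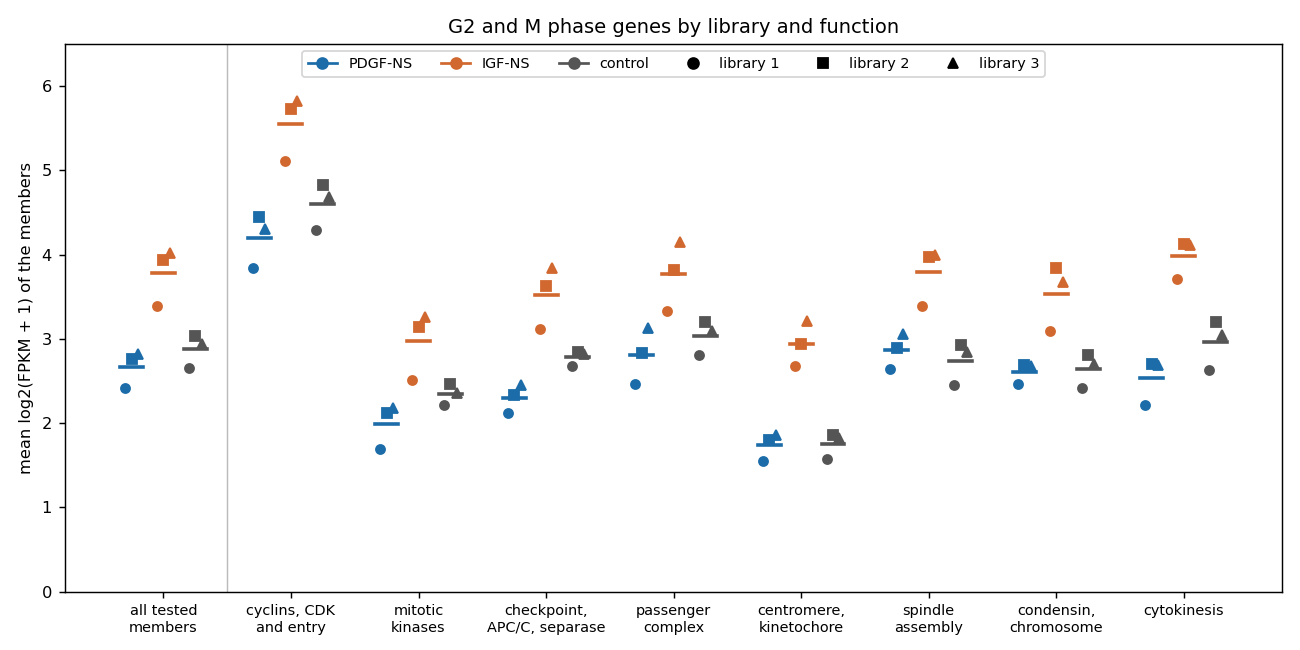
Mean log2(FPKM + 1) of the tested members in each library, for all 38 and by function, with PDGF-NS in blue, IGF-NS in orange and control in grey; symbols give the library number and bars the mean of 3 libraries. IGF-NS means lie above control means in every class, and library 1 (circles) is the lowest of its set.

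In PDGF-NS against control, 0 of 38 members were higher (limma on log2(FPKM + 1), Benjamini-Hochberg adjusted p under 0.05 over all genes tested), where 20.7% of all genes were higher, and 5 members were lower (13.2%), where 10.2% of all genes were lower. The lower share was near that of all genes. The 5 were Cdca3, Plk1, Bub1b, Cdc20 and Cdca8, and at an unadjusted p under 0.05 the counts were 0 higher and 7 lower. The median difference of members was -0.22 on the log2 scale, against 0.13 for all genes, and 28 of 38 members were below 0. Of all genes 60.7% were above 0. The size of the members' median depended on single libraries, with -0.082 without PDGF-NS library 1, -0.14 without control library 2 and -0.33 without PDGF-NS library 3. It stayed below 0 with any single library left out. With median ratio scaling, a common sum and quantile normalization it was -0.30, -0.30 and -0.35. The calls rested on single libraries: leaving out PDGF-NS library 1 or control library 3 left 0 members called, leaving out PDGF-NS library 3 or control library 2 left 1, and leaving out IGF-NS library 2, whose spread enters the fit, left 3. Without all 3 libraries numbered 1, an alternative added after seeing the data, 3 members were called lower.

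In IGF-NS against control, which shares the control libraries with the comparison above, 27 of 38 members rose, where 17.4% of all genes were higher, and 0 were lower, where 7.48% of all genes were lower (limma, unadjusted 34 and 0). The median difference of members was 0.95 on the log2 scale, against 0.15 for all genes, with a range from 0.27 (Espl1) to 1.39 (Cenpa). All 38 differences were above 0, where 64.2% of all genes were. The 11 members that did not pass were Cdk1, Plk1, Melk, Pbk, Ube2c, Espl1, Aurkb, Cdca8, Spag5, Ncaph and Prc1. Of the 27 calls, 18 held without any single library.

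In PDGF-NS against IGF-NS, 31 of 38 members were lower, where 7.55% of all genes were lower, and 0 were higher, where 8.33% of all genes were higher (limma, unadjusted 38 lower and 0 higher). The median difference was -1.19 on the log2 scale, against -0.02 for all genes, and all 38 values were negative, from -1.76 (Ccnb1) to -0.49 (Aurkb). Of all genes 47.3% were positive in this comparison. The 7 members that did not pass were Melk, Espl1, Aurkb, Birc5, Nusap1, Spag5 and Ncaph, and 21 of the 31 calls held without any single library. Bringing all libraries to a common median ratio moved the median of all genes to 0.01 in both comparisons with control, and split the calls over all genes into 1768 higher and 1678 lower in PDGF-NS (2355 and 1166 as deposited) and into 1137 and 1229 in IGF-NS (1976 and 851 as deposited). Under that scaling 7 members were lower in PDGF-NS and 21 higher in IGF-NS than in control. With a common sum the calls over all genes in PDGF-NS against IGF-NS were 737 higher and 1480 lower (948 and 859 as deposited), which is 13.0% lower, and 35 members were lower.

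**Figure D3:**
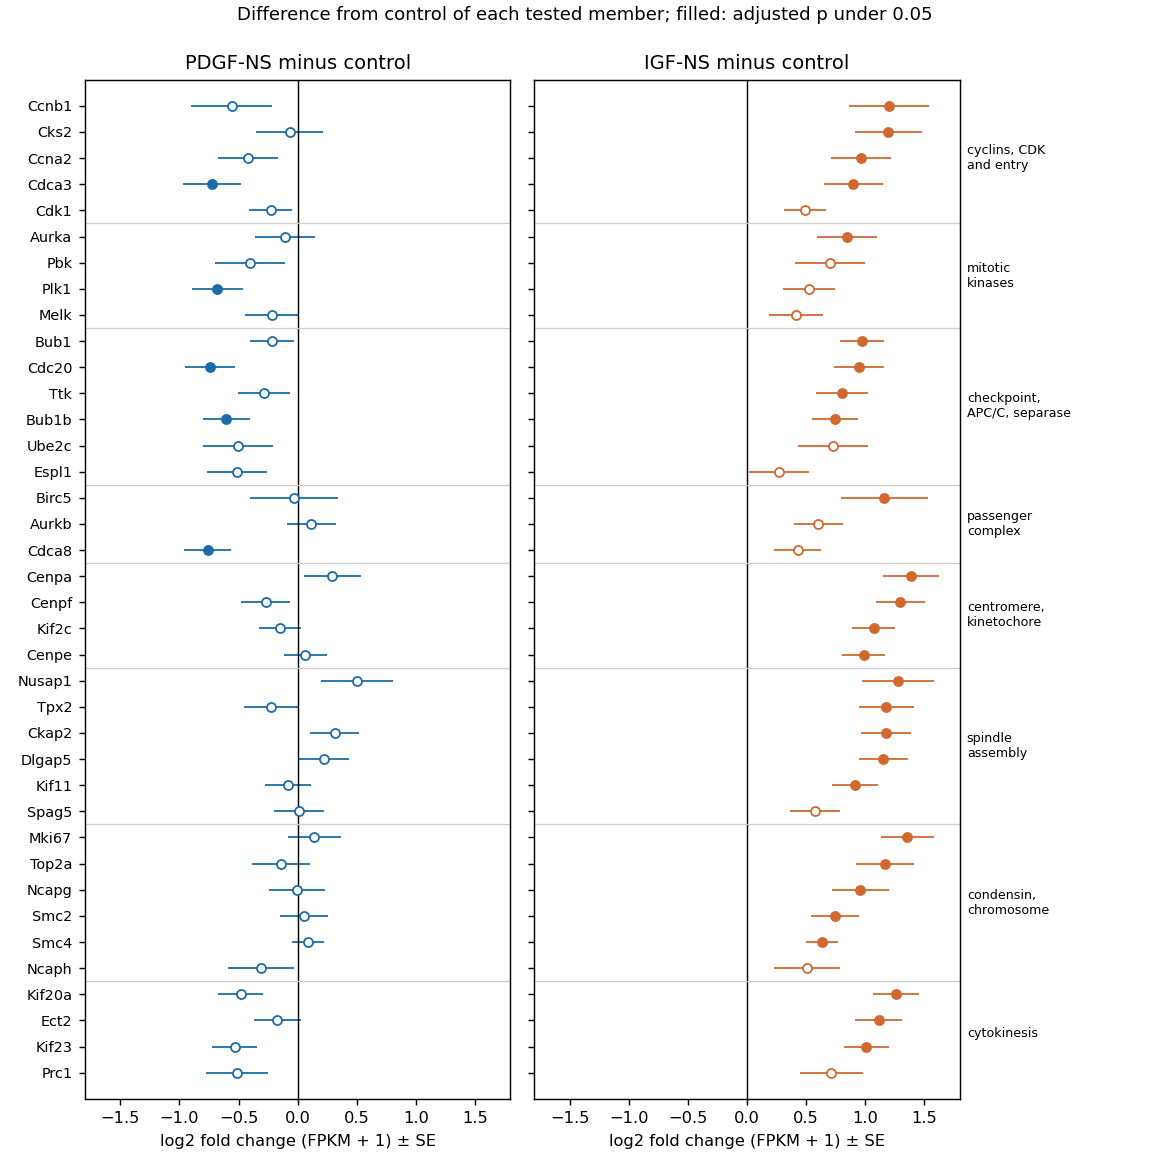
Log2 fold change (FPKM + 1) of each tested member with its SE, PDGF-NS minus control on the left and IGF-NS minus control on the right, grouped by function; filled circles have an adjusted p under 0.05. All 38 points lie above 0 in IGF-NS, 27 of them filled, and 10 of 38 do in PDGF-NS, where the 5 filled points are below 0. Of all genes tested, 64.2% are above 0 in IGF-NS and 60.7% in PDGF-NS. With another scaling, Aurkb, Cenpe, Spag5, Smc2 and Smc4 pass below 0 in PDGF-NS.

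The genes of mitotic entry are the cyclins, their kinase and its helpers: Ccnb1 and Ccna2 are cyclins, Cdk1 is the kinase they activate, Cks2 binds Cdk1, and Cdca3 promotes loss of the Cdk1 inhibitor Wee1. In IGF-NS 4 of the 5 tested rose (median 0.97), in PDGF-NS 0 rose and 1 fell (median -0.42), and all 5 were lower in PDGF-NS than in IGF-NS (median -1.39). Counts in this and the following classes are to be read against all genes tested. Of all genes 20.7% rose and 10.2% fell in PDGF-NS, and 17.4% rose and 7.48% fell in IGF-NS. Between the treated sets 7.55% were lower in PDGF-NS. With 3 to 6 tested genes a class, 1 call says little about the class. Cks2 had 32.0, 39.5 and 41.3 FPKM in PDGF-NS libraries 1 to 3, 60.5, 116 and 108 FPKM in IGF-NS libraries and 26.6, 52.2 and 43.2 FPKM in control libraries. Every IGF-NS value exceeded every other value, and the PDGF-NS values lay inside the control range. The difference was 1.20 ± 0.28 (SE) on the log2 scale in IGF-NS (limma, adjusted p = 0.0129) and -0.07 ± 0.28 in PDGF-NS (adjusted p = 0.878), a sign that turned when PDGF-NS library 1, control library 2 or control library 3 was left out.

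Ccnb1 had 3.56, 8.03 and 5.50 FPKM in PDGF-NS, 16.4, 27.6 and 19.9 FPKM in IGF-NS and 4.65, 11.0 and 11.6 FPKM in control libraries. The IGF-NS values were all above control, and the low control library 1 lay among the PDGF-NS values. It rose by 1.20 ± 0.34 in IGF-NS (limma, adjusted p = 0.0287), differed by -0.56 ± 0.34 in PDGF-NS (adjusted p = 0.242; -0.93 and 0.0377 without control library 1), and its -1.76 ± 0.34 between PDGF-NS and IGF-NS (adjusted p = 0.00644) was the most negative of the 38. Cdk1, which differed least in the class in IGF-NS against control and between the treated sets, had 20.7, 27.1 and 30.2 FPKM in PDGF-NS, 35.4, 41.3 and 54.0 FPKM in IGF-NS and 31.2, 31.2 and 28.5 FPKM in control libraries. The IGF-NS libraries were above the control ones without overlap, but 0.49 ± 0.18 did not pass (limma, adjusted p = 0.0713).

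Cdca3 separated all 3 sets, with 10.8, 18.8 and 15.8 FPKM in PDGF-NS, 35.4, 45.5 and 67.4 FPKM in IGF-NS and 22.2, 29.2 and 24.3 FPKM in control libraries. It fell by 0.73 ± 0.25 on the log2 scale in PDGF-NS (limma, adjusted p = 0.0493) and rose by 0.90 ± 0.25 in IGF-NS (adjusted p = 0.0253). Ccna2 averaged 19.4 ± 4.45 FPKM in PDGF-NS, 54.1 ± 18.1 FPKM in IGF-NS and 26.0 ± 2.01 FPKM in control (SD, n = 3 each), and rose in IGF-NS (0.97 ± 0.25, limma, adjusted p = 0.0203). The IGF-NS calls of Ccna2, Ccnb1 and Cdca3 were lost without IGF-NS library 2 or 3 or control library 1, and those of Ccna2 and Cdca3 also without control library 3, with adjusted p up to 0.0971. The PDGF-NS call of Cdca3 was lost without any of 6 libraries, among them every control library (adjusted p up to 0.166). Between the treated sets the call of Cdk1 was lost without PDGF-NS library 1 or 2 or IGF-NS library 3 (adjusted p up to 0.0785) and that of Cks2 without PDGF-NS library 1 (adjusted p = 0.0538).

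Of the mitotic kinases, 1 of 4 tested rose in IGF-NS (Aurka), 1 fell in PDGF-NS (Plk1), and 3 were lower in PDGF-NS than in IGF-NS. The shares of all genes called in these directions were 17.4%, 10.2% and 7.55%. Plk1, which activates Cdk1-cyclin B and is needed for centrosomes, kinetochores and cytokinesis, had 6.97, 10.4 and 9.23 FPKM in PDGF-NS libraries, 15.7, 21.1 and 29.8 FPKM in IGF-NS libraries and 13.4, 15.4 and 15.1 FPKM in control libraries. The 3 sets did not overlap. It fell by 0.68 ± 0.22 on the log2 scale in PDGF-NS (limma, adjusted p = 0.0382), a call that was lost without PDGF-NS library 1 or 3 or any control library (adjusted p up to 0.132), while its 0.53 ± 0.22 in IGF-NS did not pass (adjusted p = 0.105; 0.74 and 0.0407 without IGF-NS library 1).

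Aurka, the centrosomal and spindle pole kinase, had 2.30, 4.43 and 4.11 FPKM in PDGF-NS, 5.40, 7.54 and 11.2 FPKM in IGF-NS and 3.96, 3.49 and 4.11 FPKM in control libraries. All IGF-NS values were above control and the PDGF-NS values straddled it. The rise of 0.85 ± 0.25 in IGF-NS (limma, adjusted p = 0.0350) was lost without PDGF-NS library 3, IGF-NS library 2 or 3 or any control library (adjusted p up to 0.0900), and without PDGF-NS library 1 its difference between PDGF-NS and control turned to 0.12. Melk had 0.597, 1.17 and 1.57 FPKM in PDGF-NS, 1.61, 2.54 and 2.58 FPKM in IGF-NS and 1.18, 1.78 and 1.30 FPKM in control libraries, values that overlapped between treated and control libraries. Pbk averaged 1.79 ± 0.308 FPKM in PDGF-NS, 5.36 ± 2.69 FPKM in IGF-NS and 2.71 ± 0.775 FPKM in control (SD, n = 3 each). It did not pass against control in either set, and its lower level in PDGF-NS than in IGF-NS (-1.10 ± 0.30, limma, adjusted p = 0.0307) was lost without any PDGF-NS library or IGF-NS library 2 or 3 (adjusted p up to 0.0929). Between the treated sets the call of Aurka was lost without PDGF-NS library 1 or 3 or IGF-NS library 2 or 3 (adjusted p up to 0.102).

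In the class of the spindle checkpoint, APC/C activity and separase 2 of 6 tested genes fell in PDGF-NS (median -0.51), 4 rose in IGF-NS (median 0.77), and 5 were lower in PDGF-NS than in IGF-NS (median -1.21). The shares of all genes called in these directions were 10.2%, 17.4% and 7.55%. Cdc20, the activator through which APC/C starts anaphase, had 7.05, 9.96 and 8.71 FPKM in PDGF-NS libraries, 23.1, 27.2 and 41.1 FPKM in IGF-NS libraries and 14.3, 13.3 and 17.4 FPKM in control libraries. The 3 sets were separate. Its means were 8.58 ± 1.46 FPKM in PDGF-NS, 30.5 ± 9.43 FPKM in IGF-NS and 15.0 ± 2.14 FPKM in control (SD, n = 3 each), that is 0.573 times control in PDGF-NS and 2.04 times control in IGF-NS. On the log2 scale the differences were -0.74 ± 0.21 in PDGF-NS (limma, adjusted p = 0.0235) and 0.95 ± 0.21 in IGF-NS (adjusted p = 0.0101). The fall was lost without PDGF-NS library 1 or 3 or control library 3 (adjusted p up to 0.0864).

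Bub1b encodes BubR1, a part of the mitotic checkpoint complex that holds Cdc20, and is described in full because it was called, a choice made after its values were seen. It had 1.68, 2.34 and 2.61 FPKM in PDGF-NS libraries, 5.23, 7.68 and 8.89 FPKM in IGF-NS libraries and 4.01, 4.06 and 3.47 FPKM in control libraries, again without overlap between sets. The differences were -0.60 ± 0.20 in PDGF-NS (limma, adjusted p = 0.0417) and 0.75 ± 0.20 in IGF-NS (adjusted p = 0.0214). The fall was lost without any of 7 libraries, among them every PDGF-NS and every control library (adjusted p up to 0.134), and the rise without IGF-NS library 2 or 3 or control library 3 (adjusted p up to 0.0667).

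Bub1, the kinetochore kinase that recruits the checkpoint, had 1.69, 1.68 and 2.43 FPKM in PDGF-NS, 4.80, 6.93 and 5.41 FPKM in IGF-NS and 1.98, 2.39 and 2.84 FPKM in control libraries. Only the IGF-NS values stood clear of the others, and Bub1 rose by 0.98 ± 0.19 (limma, adjusted p = 0.00479). Ttk (Mps1), which starts the checkpoint, averaged 2.10 ± 0.458 FPKM in PDGF-NS, 5.72 ± 1.79 FPKM in IGF-NS and 2.75 ± 0.212 FPKM in control (SD, n = 3 each) and rose in IGF-NS (0.80 ± 0.22, limma, adjusted p = 0.0237), a call lost without IGF-NS library 2 or 3 or any control library (adjusted p up to 0.0812). Ube2c, the ubiquitin-conjugating enzyme of APC/C, had 24.9, 29.9 and 34.8 FPKM in PDGF-NS, 43.7, 87.0 and 94.4 FPKM in IGF-NS and 30.1, 51.4 and 49.6 FPKM in control libraries. IGF-NS library 1 lay inside the control range, and 0.73 ± 0.30 did not pass (limma, adjusted p = 0.101; 1.07 and 0.0191 without that library). Espl1, the separase that cleaves cohesin, had 0.600, 0.900 and 0.728 FPKM in PDGF-NS, 1.31, 1.74 and 3.29 FPKM in IGF-NS and 1.82, 1.70 and 1.01 FPKM in control libraries. Its PDGF-NS values were below all others, but -0.52 ± 0.25 against control did not pass (limma, adjusted p = 0.148). Between the treated sets the call of Ube2c was lost without PDGF-NS library 1 or 2 or IGF-NS library 2 or 3 (adjusted p up to 0.0727), and Espl1 (-0.79 ± 0.25, adjusted p = 0.0614) passed without IGF-NS library 1 (adjusted p = 0.0457).

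**Figure D4:**
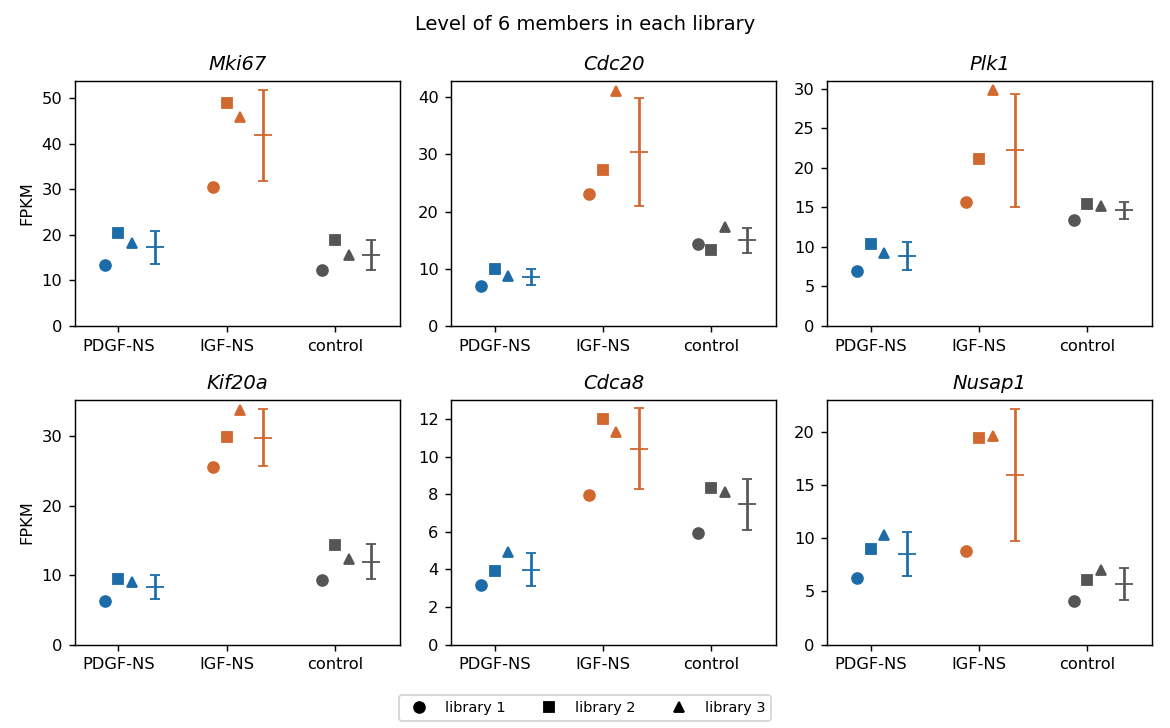
FPKM of Mki67, Cdc20, Plk1, Kif20a, Cdca8 and Nusap1 in each library, with the mean and SD of 3 libraries beside the points; each panel has its own scale from 0. In PDGF-NS, Cdc20, Plk1 and Cdca8 lie below every control library, whereas Mki67 and Nusap1 overlap with control.

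The chromosomal passenger complex, which corrects wrong attachments of chromosomes and later marks the cleavage plane, had 3 subunits among the tested members, of which 1 rose in IGF-NS (Birc5) and 1 fell in PDGF-NS (Cdca8). Of all genes 17.4% rose in IGF-NS and 10.2% fell in PDGF-NS. All 3 differences from control were positive in IGF-NS, where 64.2% of all genes were, and differences between the subunits were not tested. Its kinase Aurkb had 10.6, 12.8 and 13.0 FPKM in PDGF-NS libraries, 12.1, 18.1 and 23.7 FPKM in IGF-NS libraries and 12.4, 10.8 and 10.2 FPKM in control libraries. The sets overlapped and neither difference from control passed (0.12 ± 0.21 in PDGF-NS, limma, adjusted p = 0.707, a sign that turned under each of the 3 other scalings; 0.60 ± 0.21 in IGF-NS, adjusted p = 0.0604, which passed at 0.85 and 0.0132 without IGF-NS library 1). Birc5 (survivin), which docks the complex on chromatin, had 2.42, 4.34 and 7.15 FPKM in PDGF-NS, 7.61, 10.2 and 17.5 FPKM in IGF-NS and 2.70, 6.02 and 5.12 FPKM in control libraries. It rose by 1.16 ± 0.37 in IGF-NS (limma, adjusted p = 0.0447), a call lost without any of 5 libraries (PDGF-NS 2, IGF-NS 2 and 3, control 1 and 3, adjusted p up to 0.130), and in PDGF-NS its -0.03 ± 0.37 ranged from -0.34 to 0.28 with a single library left out.

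Cdca8 (borealin), the third subunit on the list, had 3.18, 3.89 and 4.92 FPKM in PDGF-NS libraries, 7.99, 12.0 and 11.3 FPKM in IGF-NS libraries and 5.93, 8.34 and 8.13 FPKM in control libraries. Every PDGF-NS value was below every control value, and IGF-NS library 1 lay inside the control range. Its fall of 0.76 ± 0.20 on the log2 scale in PDGF-NS (0.535 times control; limma, adjusted p = 0.0160) was the largest among the members and was lost without PDGF-NS library 1 or control library 2 or 3 (adjusted p up to 0.0624). In IGF-NS its 0.43 ± 0.20 did not pass (adjusted p = 0.146). Between the treated sets Cdca8 was lower in PDGF-NS (-1.19 ± 0.20, limma, adjusted p = 0.00282), while Aurkb (-0.49 ± 0.21, adjusted p = 0.152) and Birc5 (-1.19 ± 0.37, adjusted p = 0.0555) did not pass.

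All 4 centromere and kinetochore members rose in IGF-NS (median 1.18), where 17.4% of all genes did. They were lower in PDGF-NS than in IGF-NS (median -1.16, against 7.55% of all genes lower). In PDGF-NS against control 0 of 4 passed (median -0.04), where 20.7% of all genes rose and 10.2% fell. Cenpa, the histone H3 variant that marks the centromere, had 3.40, 4.81 and 5.73 FPKM in PDGF-NS libraries, 9.27, 8.62 and 16.0 FPKM in IGF-NS libraries and 3.10, 4.15 and 3.42 FPKM in control libraries. All IGF-NS libraries exceeded the rest, and its rise of 1.39 ± 0.24 (3.18 times control; limma, adjusted p = 0.00296) was the largest among the members. Its PDGF-NS values overlapped with control at 0.29 ± 0.24 (adjusted p = 0.382).

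Cenpf, a large protein of the outer kinetochore, had 1.70, 2.16 and 2.23 FPKM in PDGF-NS libraries, 5.95, 8.00 and 10.4 FPKM in IGF-NS libraries and 2.07, 3.14 and 2.79 FPKM in control libraries. IGF-NS was clear of both other sets, at 3.05 times control (1.30 ± 0.21, limma, adjusted p = 0.00198) and with PDGF-NS at 0.250 times IGF-NS (-1.57 ± 0.21, adjusted p = 0.000706). Cenpe, the kinesin that carries chromosomes to the spindle equator, was low, with 0.785, 1.01 and 1.07 FPKM in PDGF-NS, 2.38, 3.19 and 2.58 FPKM in IGF-NS and 0.728, 0.747 and 1.16 FPKM in control libraries. It too was clear of control in IGF-NS (0.99 ± 0.18, limma, adjusted p = 0.00417) and overlapped with it in PDGF-NS (0.06 ± 0.18, adjusted p = 0.817, a sign that turned under each of the 3 other scalings). Kif2c (MCAK), which removes wrongly attached microtubules, averaged 2.81 ± 0.258 FPKM in PDGF-NS, 7.99 ± 1.76 FPKM in IGF-NS and 3.24 ± 0.512 FPKM in control (SD, n = 3 each; 1.07 ± 0.18 in IGF-NS, adjusted p = 0.00265). The calls of this class in IGF-NS held without any single library. The lower level of Cenpa in PDGF-NS than in IGF-NS (-1.10 ± 0.24, limma, adjusted p = 0.0118) did not pass without the 3 libraries numbered 1 (adjusted p = 0.0667).

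Of the spindle assembly genes 5 of 6 tested rose in IGF-NS (median 1.17), where 17.4% of all genes did. In PDGF-NS against control 0 of 6 passed (median 0.12), where 20.7% of all genes rose and 10.2% fell. Between the treated sets 4 were lower in PDGF-NS (median -0.90, against 7.55% of all genes lower). Nusap1, which bundles microtubules around chromosomes, had 6.29, 8.95 and 10.3 FPKM in PDGF-NS libraries, 8.78, 19.5 and 19.6 FPKM in IGF-NS libraries and 4.06, 6.11 and 7.02 FPKM in control libraries. PDGF-NS libraries 2 and 3 were above every control library and library 1 was not. It rose by 1.28 ± 0.30 in IGF-NS (limma, adjusted p = 0.0133), and its 0.50 ± 0.30 in PDGF-NS did not pass (adjusted p = 0.234). PDGF-NS and IGF-NS overlapped through IGF-NS library 1 (-0.78 ± 0.30, adjusted p = 0.118; -1.13 and 0.0178 without that library).

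Ckap2, a microtubule stabiliser, was the most abundant of the class, with 12.4, 16.1 and 16.0 FPKM in PDGF-NS libraries, 22.6, 35.6 and 26.3 FPKM in IGF-NS libraries and 8.76, 13.1 and 13.8 FPKM in control libraries. The IGF-NS libraries stood above all others (1.18 ± 0.21 against control, limma, adjusted p = 0.00348), and PDGF-NS and control overlapped. Tpx2, which activates Aurka on the spindle, had 7.19, 9.60 and 10.1 FPKM in PDGF-NS, 17.7, 28.4 and 31.3 FPKM in IGF-NS and 7.99, 12.3 and 11.8 FPKM in control libraries. It rose by 1.18 ± 0.23 in IGF-NS (limma, adjusted p = 0.00594), clear of both other sets. Spag5 (astrin) had 1.50, 1.72 and 1.57 FPKM in PDGF-NS, 1.99, 2.77 and 4.02 FPKM in IGF-NS and 1.46, 1.94 and 1.35 FPKM in control libraries. Although all IGF-NS values were above control, 0.58 ± 0.21 did not pass (limma, adjusted p = 0.0700; 0.76 and 0.0407 without IGF-NS library 1), and the 0.01 ± 0.21 in PDGF-NS (adjusted p = 0.971) turned its sign under the other scalings. Kif11 (Eg5), the motor that separates the poles, averaged 6.32 ± 1.11 FPKM in PDGF-NS, 13.8 ± 3.19 FPKM in IGF-NS and 6.75 ± 0.968 FPKM in control, and Dlgap5 (HURP) averaged 4.54 ± 1.41 FPKM in PDGF-NS, 9.40 ± 0.943 FPKM in IGF-NS and 3.72 ± 0.931 FPKM in control (SD, n = 3 each). Both rose in IGF-NS (limma, adjusted p = 0.00808 and 0.00381). Between the treated sets the call of Dlgap5 was lost without PDGF-NS library 1 or 2 (limma, adjusted p up to 0.0590) and that of Ckap2 without PDGF-NS library 1 or 3 or IGF-NS library 2 (adjusted p up to 0.0760).

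The genes of chromosome structure showed 5 rises of 6 tested in IGF-NS (median 0.85), where 17.4% of all genes rose. They showed 0 calls in PDGF-NS against control (median 0.03), where 20.7% of all genes rose and 10.2% fell. Between the treated sets 5 were lower in PDGF-NS (median -0.89, against 7.55% of all genes lower). Mki67, which coats mitotic chromosomes and is the usual proliferation marker, had 13.3, 20.4 and 18.2 FPKM in PDGF-NS libraries, 30.4, 49.0 and 45.9 FPKM in IGF-NS libraries and 12.3, 18.8 and 15.7 FPKM in control libraries. IGF-NS libraries exceeded all others at 2.68 times control (1.36 ± 0.22, limma, adjusted p = 0.00239), and the PDGF-NS and control ranges overlapped (0.14 ± 0.22, adjusted p = 0.669, turning to -0.0086 without control library 1). Top2a, the topoisomerase that untangles sister chromatids, had 4.58, 6.58 and 7.09 FPKM in PDGF-NS, 10.6, 20.7 and 19.7 FPKM in IGF-NS and 6.08, 7.87 and 6.31 FPKM in control libraries. It followed the same pattern, with 1.17 ± 0.25 in IGF-NS (limma, adjusted p = 0.00797) and -0.14 ± 0.25 in PDGF-NS (adjusted p = 0.698, turning to 0.02 without PDGF-NS library 1).

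Smc4, a core condensin ATPase, had the smallest SE of the class, with 7.15, 7.42 and 6.77 FPKM in PDGF-NS libraries, 9.20, 11.8 and 11.8 FPKM in IGF-NS libraries and 6.10, 6.85 and 7.04 FPKM in control libraries. IGF-NS was clear of both other sets, with a rise of 0.63 ± 0.14 (limma, adjusted p = 0.00872). Its partner Smc2 averaged 3.04 ± 0.456 FPKM in PDGF-NS, 5.61 ± 1.54 FPKM in IGF-NS and 2.91 ± 0.626 FPKM in control (SD, n = 3 each) and rose in IGF-NS (0.75 ± 0.20, limma, adjusted p = 0.0237), a call lost without IGF-NS library 2 or control library 1 (adjusted p up to 0.0805). In PDGF-NS against control the small differences of Smc4 (0.08 ± 0.14) and Smc2 (0.06 ± 0.20) turned below 0 under each of the 3 other scalings.

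The condensin subunits Ncapg and Ncaph differed in the steadiness of their IGF-NS values. Ncapg had 1.62, 2.37 and 1.75 FPKM in PDGF-NS libraries, 3.30, 6.07 and 4.95 FPKM in IGF-NS libraries and 1.19, 2.44 and 2.26 FPKM in control libraries. It rose by 0.96 ± 0.24 in IGF-NS (limma, adjusted p = 0.0168, but 0.0610 without IGF-NS library 2). Ncaph had 3.48, 3.16 and 3.55 FPKM in PDGF-NS, 3.55, 9.60 and 8.63 FPKM in IGF-NS and 3.97, 4.99 and 4.43 FPKM in control libraries. IGF-NS library 1 was below every control library and the other 2 were above, so that 0.51 ± 0.28 did not pass (limma, adjusted p = 0.209; 0.89 and 0.00821 without that library). Between the treated sets the calls of Smc2, Smc4 and Ncapg were lost without PDGF-NS library 1 or 3 or IGF-NS library 2 or 3, those of Smc2 and Smc4 also without PDGF-NS library 2, and that of Smc2 also without control library 2 or 3 (adjusted p up to 0.138). Ncaph (-0.82 ± 0.28, adjusted p = 0.0741) passed there without IGF-NS library 1 (adjusted p = 0.00193).

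Cytokinesis genes rose in IGF-NS for 3 of 4 tested (median 1.06), where 17.4% of all genes did. All 4 were lower in PDGF-NS than in IGF-NS (median -1.41, against 7.55% of all genes lower). In PDGF-NS against control 0 of 4 passed (median -0.50), where 20.7% of all genes rose and 10.2% fell. Kif20a (MKLP2), the kinesin that carries the passenger complex to the central spindle, had 6.29, 9.47 and 9.02 FPKM in PDGF-NS libraries, 25.6, 29.9 and 33.8 FPKM in IGF-NS libraries and 9.28, 14.3 and 12.3 FPKM in control libraries. PDGF-NS library 2 lay just above control library 1, while IGF-NS was far above both other sets. It rose by 1.26 ± 0.19 in IGF-NS (2.49 times control; limma, adjusted p = 0.00170), and PDGF-NS was at 0.277 times IGF-NS (-1.74 ± 0.19, adjusted p = 0.000270). Against control its -0.48 ± 0.19 in PDGF-NS did not pass (adjusted p = 0.0842) and passed at -0.61 under each of the 3 other scalings, with 0.0316 for the median ratio, and at -0.64 without control library 1 (0.0335).

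Kif23 (MKLP1), the motor of centralspindlin, had 4.26, 4.60 and 4.95 FPKM in PDGF-NS libraries, 12.0, 17.1 and 17.4 FPKM in IGF-NS libraries and 5.31, 8.04 and 8.29 FPKM in control libraries. The 3 sets were separate. It rose by 1.01 ± 0.19 in IGF-NS (limma, adjusted p = 0.00479), and -0.53 ± 0.19 in PDGF-NS did not pass (adjusted p = 0.0593; 0.0471 without IGF-NS library 1, and -0.71 with 0.0159 without control library 1). Ect2, the exchange factor that activates RhoA at the equator, had 1.60, 2.67 and 2.55 FPKM in PDGF-NS, 5.77, 7.86 and 7.18 FPKM in IGF-NS and 2.12, 3.32 and 2.58 FPKM in control libraries. It rose by 1.11 ± 0.20 in IGF-NS (limma, adjusted p = 0.00347), clear of the others. Prc1, which crosslinks the midzone microtubules, had 3.65, 7.29 and 7.28 FPKM in PDGF-NS, 11.8, 17.5 and 16.4 FPKM in IGF-NS and 6.38, 11.0 and 9.51 FPKM in control libraries. Its IGF-NS values were all above control, and 0.71 ± 0.27 did not pass (limma, adjusted p = 0.0759; 0.0406 without PDGF-NS library 1, whose spread enters the fit).

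The proportions of the members within a library differed between treated sets and control. As a description with no test, and for genes picked after their values were seen, each member was set against the mean of the 38 members in the same library, which removes what all members share. On that scale PDGF-NS minus control was lowest for Cdca8 (-0.55), Cdc20 (-0.53), Cdca3 (-0.51), Plk1 (-0.46) and Bub1b (-0.39), and highest for Nusap1 (0.72), Ckap2 (0.53), Cenpa (0.51), Dlgap5 (0.44) and Mki67 (0.35). IGF-NS minus control was -0.48 for Cdca8, 0.04 for Cdc20, -0.0053 for Cdca3, -0.38 for Plk1 and -0.16 for Bub1b. It was 0.37 for Nusap1, 0.27 for Ckap2, 0.48 for Cenpa, 0.25 for Dlgap5 and 0.45 for Mki67. Both differences subtract the same control libraries, and the genes were picked by PDGF-NS minus control. A like sign in both can therefore come from the control values alone, and a shared shift was not tested. Per length, the level of Cdc20 was 0.529, 0.489 and 0.479 times that of Mki67 in PDGF-NS libraries, 0.760, 0.556 and 0.895 times in IGF-NS libraries and 1.16, 0.707 and 1.11 times in control libraries. PDGF-NS was below both other sets in this ratio without overlap. The level of Plk1 was 0.523, 0.511 and 0.508 times that of Mki67 in PDGF-NS, 0.517, 0.431 and 0.650 times in IGF-NS and 1.09, 0.820 and 0.965 times in control libraries. Here both treated sets were below control. Against Nusap1, Cdc20 stood at 1.12, 1.11 and 0.842 times in PDGF-NS, 2.63, 1.40 and 2.10 times in IGF-NS and 3.52, 2.17 and 2.48 times in control libraries. These ratios compare levels within a library and do not depend on its scaling.

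**Figure D5:**
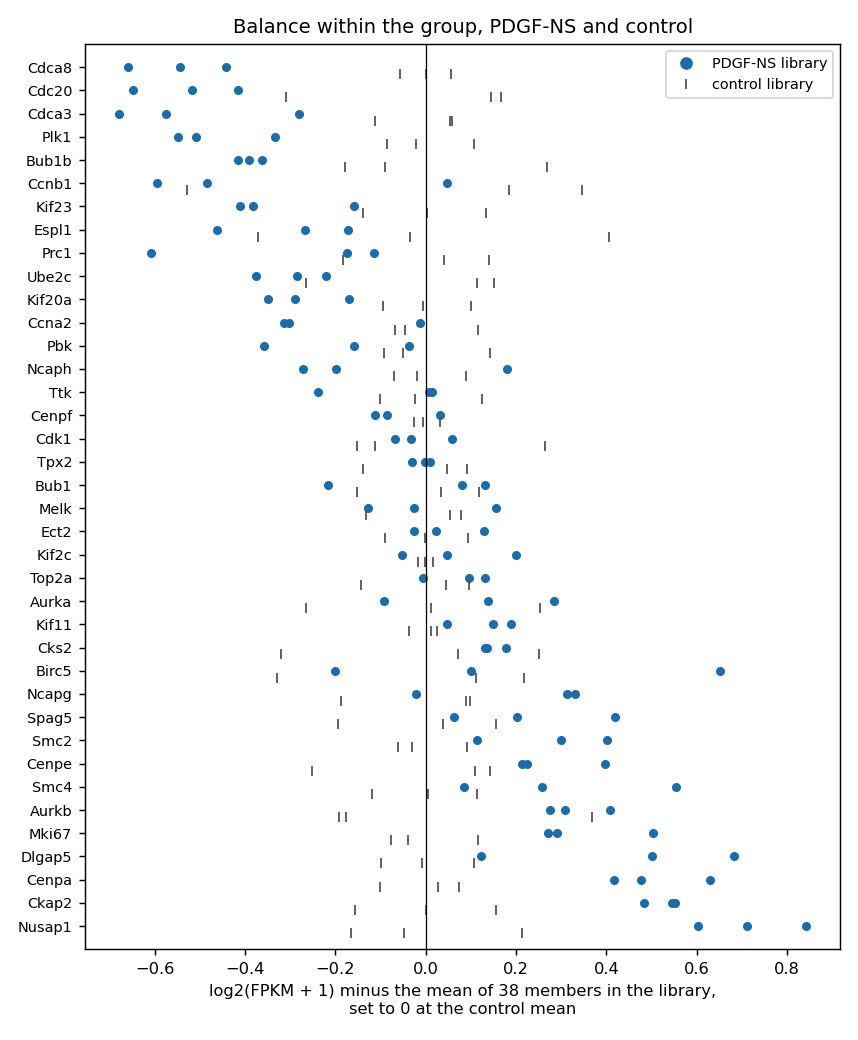
Level of each of 38 members minus the mean of the 38 in the same library, on the log2(FPKM + 1) scale and set to 0 at the control mean; blue points are PDGF-NS libraries and grey ticks control libraries, with members sorted by the PDGF-NS mean. Cdca8 (-0.55) and Cdc20 (-0.53) are at the top and Nusap1 (0.72) at the bottom, and all 3 PDGF-NS libraries of Nusap1 and Ckap2 lie right of every control library.

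Promoter letters were set beside the fold changes of the members. With CHR letters (22 members) the median difference was -0.16 in PDGF-NS and 0.95 in IGF-NS against control, and without them (11 members) it was -0.21 and 0.98. With at least 2 CCAAT matches (17 members) the medians were -0.23 and 1.11, and with fewer (16 members) -0.13 and 0.88. These are descriptions of small groups, with no test.

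Factors that are known to act on such promoters were counted in the same way. Of 16 tested genes of MuvB, MYB, FOXM1 and the pocket proteins, 2 rose (12.5%, against 20.7% of all genes) and 1 fell (6.25%, against 10.2%) in PDGF-NS against control. In IGF-NS 5 rose (31.2%, against 17.4% of all genes) and 1 fell (6.25%, against 7.48%). The rises there included E2f5 (1.14 ± 0.25, limma, adjusted p = 0.00937), and the fall was that of E2f4 (-0.66 ± 0.20, adjusted p = 0.0354). Lin37, a MuvB subunit, averaged 62.6 ± 6.30 FPKM in PDGF-NS, 52.5 ± 8.96 FPKM in IGF-NS and 35.4 ± 3.26 FPKM in control (SD, n = 3 each), and rose by 0.80 ± 0.15 in PDGF-NS (limma, adjusted p = 0.00270) and by 0.54 ± 0.15 in IGF-NS (adjusted p = 0.0237). Rbl2, which encodes p130, the pocket protein of DREAM in resting cells, averaged 17.2 ± 1.37 FPKM in PDGF-NS, 15.3 ± 1.02 FPKM in IGF-NS and 9.32 ± 1.66 FPKM in control (SD, n = 3 each). It rose by 0.83 ± 0.15 in PDGF-NS (limma, adjusted p = 0.00210) and by 0.67 ± 0.15 in IGF-NS (adjusted p = 0.00918). Foxm1 had 8.31, 12.3 and 11.4 FPKM in PDGF-NS libraries, 16.2, 20.6 and 26.8 FPKM in IGF-NS libraries and 16.4, 16.5 and 13.8 FPKM in control libraries. Every PDGF-NS value was below every control value, but -0.52 ± 0.20 did not pass (limma, adjusted p = 0.0722), nor did 0.40 ± 0.20 in IGF-NS (adjusted p = 0.166), whereas PDGF-NS was below IGF-NS (-0.92 ± 0.20, adjusted p = 0.0110). Mybl2, which encodes B-MYB, was low, with 0.379, 1.25 and 1.23 FPKM in PDGF-NS, 1.05, 1.78 and 2.41 FPKM in IGF-NS and 4.16, 2.93 and 2.16 FPKM in control libraries. It fell in PDGF-NS (-1.07 ± 0.28, limma, adjusted p = 0.0157) and in IGF-NS its -0.57 ± 0.28 did not pass (adjusted p = 0.163).

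Among 18 tested phosphatases, inhibitors and other regulators of G2 and mitosis, 4 rose (22.2%) and 1 fell (5.56%) in each treated set, shares to be read against 20.7% higher and 10.2% lower of all genes in PDGF-NS and 17.4% and 7.48% in IGF-NS. One of the 4 rises in IGF-NS is uncertain: Cks1b, a binding partner of Cdk1, stands on 2 rows of the table, of which 1 passed (0.45 ± 0.10, limma, adjusted p = 0.0115) and the other did not (0.38 ± 0.35, adjusted p = 0.456). Cdkn1a, which encodes the CDK inhibitor p21, had 157, 151 and 210 FPKM in PDGF-NS libraries, 95.2, 109 and 149 FPKM in IGF-NS libraries and 80.8, 98.8 and 88.9 FPKM in control libraries. It rose in PDGF-NS (0.93 ± 0.19, limma, adjusted p = 0.00437), with all PDGF-NS libraries above both other sets, and did not pass in IGF-NS (0.37 ± 0.19, adjusted p = 0.177). Cdkn1b (p27) averaged 89.5 ± 6.13 FPKM in PDGF-NS, 136 ± 37.2 FPKM in IGF-NS and 88.4 ± 16.4 FPKM in control (SD, n = 3 each), and rose by 0.60 ± 0.20 in IGF-NS (limma, adjusted p = 0.04996, just under the threshold). In PDGF-NS, Gadd45a, a stress gene that inhibits Cdk1-cyclin B, rose by 1.44 ± 0.36 (limma, adjusted p = 0.0121). It had 143 FPKM in library 1 and 41.2 and 89.8 FPKM in libraries 2 and 3. Its relative Gadd45b was the gene that fell in each set, by 1.03 ± 0.14 in PDGF-NS (limma, adjusted p = 0.000414) and by 1.12 ± 0.14 in IGF-NS (adjusted p = 0.000499). Cdc25b, a phosphatase that activates Cdk1, rose by 0.75 ± 0.19 in PDGF-NS (limma, adjusted p = 0.0135).

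Mitotic genes outside the list were counted by function, to be read against 20.7% higher and 10.2% lower of all genes in PDGF-NS and 17.4% and 7.48% in IGF-NS. In PDGF-NS against IGF-NS 8.33% of all genes were higher and 7.55% lower, or 13.0% lower with a common sum. Of 31 other kinetochore genes tested 1 rose and 0 fell in PDGF-NS, 13 rose and 0 fell in IGF-NS, and 13 were lower in PDGF-NS than in IGF-NS. The largest rises in IGF-NS were those of Ska1 (1.54 ± 0.26, limma, adjusted p = 0.00291), Ndc80 (1.46 ± 0.33, adjusted p = 0.0112) and Spc25 (1.27 ± 0.28, adjusted p = 0.0101), all parts of the microtubule-binding outer kinetochore. Of 25 other mitotic kinesins and spindle genes 13 rose in IGF-NS, among them Aspm (1.27 ± 0.19, adjusted p = 0.00152) and Stmn1 (1.20 ± 0.19, adjusted p = 0.00180), while 1 rose and 3 fell in PDGF-NS. Those that fell were Kifc1 (-0.85 ± 0.20, adjusted p = 0.0104), Ckap2l (-0.81 ± 0.23, adjusted p = 0.0216) and Psrc1 (-0.75 ± 0.22, limma, adjusted p = 0.0243). Of 17 APC/C genes 2 rose and 1 fell in PDGF-NS, and 4 rose in IGF-NS. Of 16 other condensin and cohesin genes 1 rose and 1 fell in PDGF-NS and 3 rose and 1 fell in IGF-NS, and Pttg1 (securin), which restrains separase, rose in IGF-NS (1.50 ± 0.31, limma, adjusted p = 0.00701). Of 13 other genes listed under cytokinesis 1 rose and 3 fell in PDGF-NS and 1 rose and 1 fell in IGF-NS. The rise in PDGF-NS was that of Plk2 (1.55 ± 0.30, limma, adjusted p = 0.00369), a polo-like kinase counted in this list. Myh9, a heavy chain of non-muscle myosin, stands on 2 rows and is counted as 1 gene. It fell on both, by 0.85 ± 0.11 and 0.70 ± 0.14 in PDGF-NS (limma, adjusted p = 0.000368 and 0.00389) and by 1.12 ± 0.11 and 1.10 ± 0.14 in IGF-NS (adjusted p = 0.000142 and 0.000573).

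Genes of S phase were called in both directions in each treated set. Of 30 tested (31 rows, Rrm2 standing on 2), 2 rose (6.67%, against 20.7% of all genes) and 4 fell (13.3%, against 10.2%) in PDGF-NS (median over rows -0.28). In IGF-NS 3 rose (10.0%, against 17.4%) and 4 fell (13.3%, against 7.48%; median over rows -0.04). Mcm2, a subunit of the replicative helicase, averaged 16.8 ± 1.46 FPKM in PDGF-NS, 16.3 ± 3.13 FPKM in IGF-NS and 21.2 ± 5.12 FPKM in control, and Pcna, the sliding clamp, averaged 91.3 ± 12.8 FPKM in PDGF-NS, 95.0 ± 17.0 FPKM in IGF-NS and 87.3 ± 23.9 FPKM in control (SD, n = 3 each). Neither passed in either set. Fen1, the flap endonuclease, fell in both (-0.99 ± 0.18 in PDGF-NS, limma, adjusted p = 0.00220, and -0.70 ± 0.18 in IGF-NS, adjusted p = 0.0174), as did Mcm5 (-1.08 ± 0.28, adjusted p = 0.0162, and -0.95 ± 0.28, adjusted p = 0.0345). Tk1, thymidine kinase, fell in PDGF-NS (-0.90 ± 0.29, limma, adjusted p = 0.0376), where Slbp, which binds histone mRNA, rose (0.78 ± 0.14, adjusted p = 0.00273).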

How the data were processed

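Total RNA was sequenced from 9 libraries of S31 cells (Trizol RNA, Lexogen SENSE mRNA kit v2, per the labels' protocols). The submitters' processing notes name GSNAP and Cufflinks (versions, settings and genome build: not given in the sources used here). For each gene and library the authors deposited an FPKM value. Because FPKM is not a count, count models were not applied, and read numbers are unknown. Libraries were assigned by the column name in each sample record.

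The table held 26407 rows, 5795 without a symbol. The value 999999999 (10 cells of 4 rows, 0 of them members) was read as a failed estimate and its rows were left out, as were 4 all-zero rows of duplicated identifiers. The 11376 genes averaging 1 FPKM or more (768 without a symbol) entered limma (version 3.58.1, R version 4.3.3) as log2(FPKM + 1), a pseudocount of 1, with a mean-variance trend, all 9 libraries in a single fit with the set as its only term, 3 two-sided contrasts and Benjamini-Hochberg adjustment over all genes of a contrast. Fold changes on this scale understate those of low genes. The fit was tested on simulated data. Reads of near-identical genes could have been shared in Cufflinks, which was not examined.

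The members, lists, markers and motifs were chosen with earlier results of these data known. Per-library values are printed for the most abundant member of each class and for those with the largest and smallest absolute difference in each contrast. For other lists, up to 3 called genes per contrast and 6 fixed genes (Foxm1, Mybl2, Cdkn1a, Cdkn1b, Mcm2, Pcna) could be named, and the text prints part of them. Cdc25b is named outside this rule. Alternatives were other pseudocounts, filters, scalings, a replicate block, no trend, only the 6 libraries of a contrast and single libraries left out. Promoter letters were counted in RefSeq promoters of GRCr8.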

Additional observations from a re-analysis of the deposited data

How the results depend on the processing

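Across pseudocounts, filters, scalings, the trend and left-out libraries, no member turned its sign in IGF-NS against control or in PDGF-NS against IGF-NS. In the first, the count of members that rose stayed at 18 to 33 of 38 with a single library left out and was 21 with median ratio scaling (27 as reported). The share of all genes that rose was 9.99% with that scaling (17.4% as reported). In the second, the count of lower members was 21 to 35 over all settings (31 as reported). It was 21 of 38 without PDGF-NS library 1, and also 21 with a mean of at least 5 FPKM, where fewer members were tested. In every setting that tested the gene 20 calls held, and 7 of these genes (Bub1, Bub1b, Ttk, Cenpe, Cenpf, Kif2c and Ect2) were not tested with a mean of at least 5 FPKM. PDGF-NS against control depended more on the choices. Instead of 5, the count of lower members was 2 with no filter on low values and 8 with quantile normalization. It was 3 without the 3 libraries numbered 1 (an alternative chosen after seeing the data) and 0 to 6 with a single library left out. The calls over all genes moved too. Lower were 10.2% as reported (1166 genes), 15.4% with quantile normalization, 730 genes without the libraries numbered 1 and 839 to 1257 with a single library left out. Deviations of same-numbered libraries correlated at -0.28 to 0.25 over all genes and at -0.40 to 0.32 over the members. Such a correlation over the members cannot show a drop that all of them share, and 26 of 38 members were lowest in library 1 of all 3 sets. By set, 49.8% of all genes were lowest in library 1 in PDGF-NS, 21.5% in IGF-NS and 40.8% in control. Their share in all 3 sets at once was not counted. Whether the replicate numbers pair the libraries is therefore not settled. A fit with the replicate block gave 8 lower members and 1 higher member (Nusap1) in PDGF-NS against control, and 29 in place of 27 rises in IGF-NS. Over all genes this fit gave 1072 lower and 2149 higher in PDGF-NS (1166 and 2355 as reported) and 1699 higher in IGF-NS (1976 as reported).

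The sign in PDGF-NS against control turned for small differences that did not pass the test. With median ratio scaling, a common sum and quantile normalization, in this order, the log2 values were -0.0066, -0.017 and -0.013 for Aurkb, -0.0012, -0.0053 and -0.17 for Cenpe, -0.068, -0.074 and -0.16 for Spag5, -0.043, -0.051 and -0.11 for Smc2, and -0.032, -0.041 and -0.061 for Smc4. A pseudocount of 0.1 gave 0.0062 for Ncapg. Without the 3 libraries numbered 1, Aurka was 0.14, Birc5 0.0098 and Smc2 -0.025. With a single library left out, the range was -0.34 to 0.14 for Cks2, -0.24 to 0.12 for Aurka, -0.34 to 0.28 for Birc5, -0.19 to 0.027 for Kif11, -0.051 to 0.11 for Spag5, -0.084 to 0.13 for Smc2, -0.21 to 0.12 for Ncapg, -0.25 to 0.023 for Top2a and -0.0086 to 0.31 for Mki67. The cause was not tested. With no counts, the depth behind low members such as Espl1, Cenpe and Melk is unknown, and with 3 libraries a set small differences may be missed.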
